A study of Homo sapiens with 60 samples.

Results

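The genes described here encode the mitochondrial ribosomal proteins, and they were followed in HT29, a long established cell line from a human colorectal adenocarcinoma. Members were the rows of the deposited gene table whose symbol was MRPL or MRPS followed by a number and, where present, a letter from A to C. This gave 78 genes of the 60675 in the table, 49 with MRPL and 29 with MRPS symbols, spread over 21 chromosomes, and all 78 passed the filter on low counts that left 16767 genes for testing. The symbols follow an older naming, so 51 members belong to the large subunit, MRPS30 and MRPS18A among them, and 26 to the small subunit. MRPS36 was kept under the rule, although it is known as an adaptor of the 2-oxoglutarate dehydrogenase complex rather than a ribosomal protein. By the unified names of ribosomal proteins, 46 members are classed as kept from bacterial ribosomes and 31 as particular to mitochondria, with MRPS18A and MRPS18B among the latter.

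Mitochondria carry their own ribosome, which translates the few proteins encoded by mitochondrial DNA, all of them subunits of the respiratory chain and ATP synthase. Its RNA is made in the organelle, whereas its proteins are encoded in the nucleus, translated in the cytosol and imported. Nuclear genes for mitochondrial proteins are known to be served by nuclear respiratory factor 1 (NRF1), the ETS family factor GABP and YY1, and the phosphoinositide 3-kinase (PI3K) pathway is known to feed into cell growth and protein synthesis.

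The study treated HT29 cells for 24 h and sequenced polyadenylated RNA in 60 libraries of 21 groups. The vehicle group (3 libraries) had DMSO, at 0.1% per the sample labels and at 2% per the series text. The inhibitor groups (3 libraries each) had 10 µM wortmannin or 10 µM LY294002, which both block PI3K. The other 18 groups had water extracts of the fungus Poria Cocos or of the plant drugs Paeoniae Radix, Angelicae Gigantis Radix, Panax Ginseng, Glycyrrhizae Radix (licorice root) and Atractylodis Rhizoma, called by the first distinctive word of their name below, each at 500, 100 and 20 µg/mL, with 3 libraries per dose or, for Paeoniae, 2. The series text says that extracts whose IC20 was under 500 µg/mL were used at lower doses, but each label read here gives 500, 100 or 20 µg/mL.

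Whether replicates came from separate cultures is not in the labels, so p-values measure the spread between these libraries, which may be technical. In the sample codes the first number is 1 in the vehicle and inhibitor groups, 4 in Angelicae and Paeoniae, 3 in Ginseng and Glycyrrhizae and 2 in Atractylodis and Poria. The vehicle codes alone carry a letter A before that number, and every sample title reads BatchA. What the number and the letter stand for is not stated. An extract set against vehicle differs from it in both, and an inhibitor set against vehicle in the letter. In 500 against 20 µg/mL of an extract neither differs. Library totals were 20431980 to 35477712 expected counts, and 6.97% to 11.4% of a library came from the mitochondrial chromosome. The summed level of 10 markers of colorectal epithelium was 11873 to 17000 CPM (a gene's counts relative to the size of its library) per library, with 1 marker under 1 CPM on average. Most of that sum came from KRT8 and KRT18, at means of 6656 and 3974 CPM. Markers of fibroblasts, leukocytes, endothelium and hepatocytes summed to 1.15 to 2.93, 7.80 to 15.4, 0.90 to 2.35 and 18.4 to 30.6 CPM. Of these, 4 of 5, 3 of 5, 3 of 4 and 2 of 3 markers were under 1 CPM on average. The hepatocyte sum was nearly all APOH, at a mean of 21.6 CPM. The epithelial sum was 12021 to 12521 CPM with vehicle, 13666 to 14163 CPM with wortmannin and 15038 to 17000 CPM with LY294002, and its part in the results below was not tested.

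Promoters of members that changed with the PI3K inhibitors (below) are shown to compare their motifs. Each runs from 250 bases before to 50 bases after the RefSeq start on GRCh38.p14, 5′ to 3′ on the strand of the gene, and capitals mark matches on either strand. MRPL22 (chr5:154940823-154941122, plus strand) and MRPL47 (chr3:179604589-179604888, minus strand), both of which lie at the peptide exit tunnel, fell with both inhibitors. MRPL53 (chr2:74472631-74472930, minus strand) and MRPS33 (chr7:141014903-141015202, minus strand) rose with LY294002. MRPL39 (chr21:25607432-25607731, minus strand), which fell the most, held none of the 4 motifs.
MRPL22: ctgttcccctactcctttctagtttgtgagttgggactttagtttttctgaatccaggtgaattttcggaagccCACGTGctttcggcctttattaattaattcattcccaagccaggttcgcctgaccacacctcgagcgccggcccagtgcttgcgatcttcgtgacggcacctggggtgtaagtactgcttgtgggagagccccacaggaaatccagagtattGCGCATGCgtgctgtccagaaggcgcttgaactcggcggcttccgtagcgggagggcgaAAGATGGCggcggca
MRPL47: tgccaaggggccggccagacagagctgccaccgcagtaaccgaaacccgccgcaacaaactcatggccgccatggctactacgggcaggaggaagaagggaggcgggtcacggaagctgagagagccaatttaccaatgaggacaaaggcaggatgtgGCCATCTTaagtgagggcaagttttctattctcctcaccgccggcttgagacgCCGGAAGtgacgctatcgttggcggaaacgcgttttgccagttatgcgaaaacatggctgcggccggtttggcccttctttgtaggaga
MRPL53: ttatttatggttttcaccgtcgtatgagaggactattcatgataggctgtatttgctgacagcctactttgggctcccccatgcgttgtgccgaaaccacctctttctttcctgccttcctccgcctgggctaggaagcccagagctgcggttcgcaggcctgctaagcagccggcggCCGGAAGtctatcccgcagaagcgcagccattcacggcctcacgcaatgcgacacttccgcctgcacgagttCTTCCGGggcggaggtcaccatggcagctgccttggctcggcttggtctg
MRPS33: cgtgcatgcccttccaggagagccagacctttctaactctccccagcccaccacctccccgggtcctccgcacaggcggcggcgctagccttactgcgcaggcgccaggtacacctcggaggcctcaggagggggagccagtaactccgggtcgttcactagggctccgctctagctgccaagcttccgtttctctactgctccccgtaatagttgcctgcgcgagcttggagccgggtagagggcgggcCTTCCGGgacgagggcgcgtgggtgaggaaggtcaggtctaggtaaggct
MRPL39: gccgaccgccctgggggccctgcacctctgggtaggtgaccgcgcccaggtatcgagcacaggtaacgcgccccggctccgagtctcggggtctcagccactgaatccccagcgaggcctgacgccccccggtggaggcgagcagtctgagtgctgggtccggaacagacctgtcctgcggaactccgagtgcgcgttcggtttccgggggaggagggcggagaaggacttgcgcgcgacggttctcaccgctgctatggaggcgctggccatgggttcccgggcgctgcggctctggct

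The motifs searched were the NRF1 core GCGCATGC, the ETS site CCGGAAG, the YY1 core AAGATGGC and the E-box CACGTG, none of which contains another. In the MRPL22 promoter the capitals are, from left to right, an E-box, an NRF1 core and a YY1 core. In the MRPL47 promoter they are a YY1 core on the reverse strand and an ETS site, and the MRPL53 and MRPS33 promoters held ETS sites. RefSeq promoters were matched for 69 of the 78 members. The ETS site was in 42.0% of them against 10.3% of all 35116 promoters of the table, and the YY1 core was in 29% against 2.89%. The NRF1 core was in 8.7% against 3.05%, and the E-box was in 8.7% against 7.26%. Of the members with a promoter, the ETS site was in 10 of the 34 that fell with LY294002, in 4 of the 5 that rose and in 15 of the 30 that passed in neither direction. Of those 5, MRPL54, MRPS21 and MRPS33 lost their call without LY294002 replicate 3, and of the 2 that kept it MRPL53 held the site and MRPS14 did not. The YY1 core was in 11 of 34, 0 of 5 and 9 of 30. These are matches of letters in a window, given as a description with no test. The 35116 promoters are not limited to the genes tested here. The share over tested genes is not given, so the excess is not read as particular to the members.

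Members differed widely in level. The mean over the 21 group means ran from 8.11 to 170.2 CPM, with a median of 44.6 CPM, and together the members took 0.356% to 0.444% of the counts of a library. Levels between genes are compared per kb of merged exons, on which scale the median member stood at 16.8 CPM per kb. MRPS35, a small subunit protein particular to mitochondria, was the highest at 79.8 ± 3.44 CPM per kb (SD over 21 group means). MRPL45, which sits at the tunnel exit near the inner membrane, followed at 77.0 ± 2.28, and MRPL12, the stalk protein that recruits translation factors, at 76.2 ± 4.46. These 3 did not differ beyond their spread.

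MRPL23 was the lowest member at 2.73 ± 0.21 CPM per kb, below MRPL46 at 3.75 ± 0.16 and MRPL52 at 4.44 ± 0.29. MRPS35 thus stood 29.3 times above MRPL23. The order depended on the length used. Per kb of the longest coding transcript MRPS35 stood at 83.7 and MRPL23 at 8.83 CPM per kb, a ratio of 9.48, and neither was at the end of the order. On that scale MRPL13 was the highest at 107.5 CPM per kb and MRPS23 the lowest at 5.13, which is 21 times lower. MRPL46 stood at 23.7 CPM per kb there, and its gene model overlaps another coding gene on the same strand. Large subunit members had a median of 18.7 CPM per kb of merged exons and small subunit members 16.1.

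**Figure D1:**
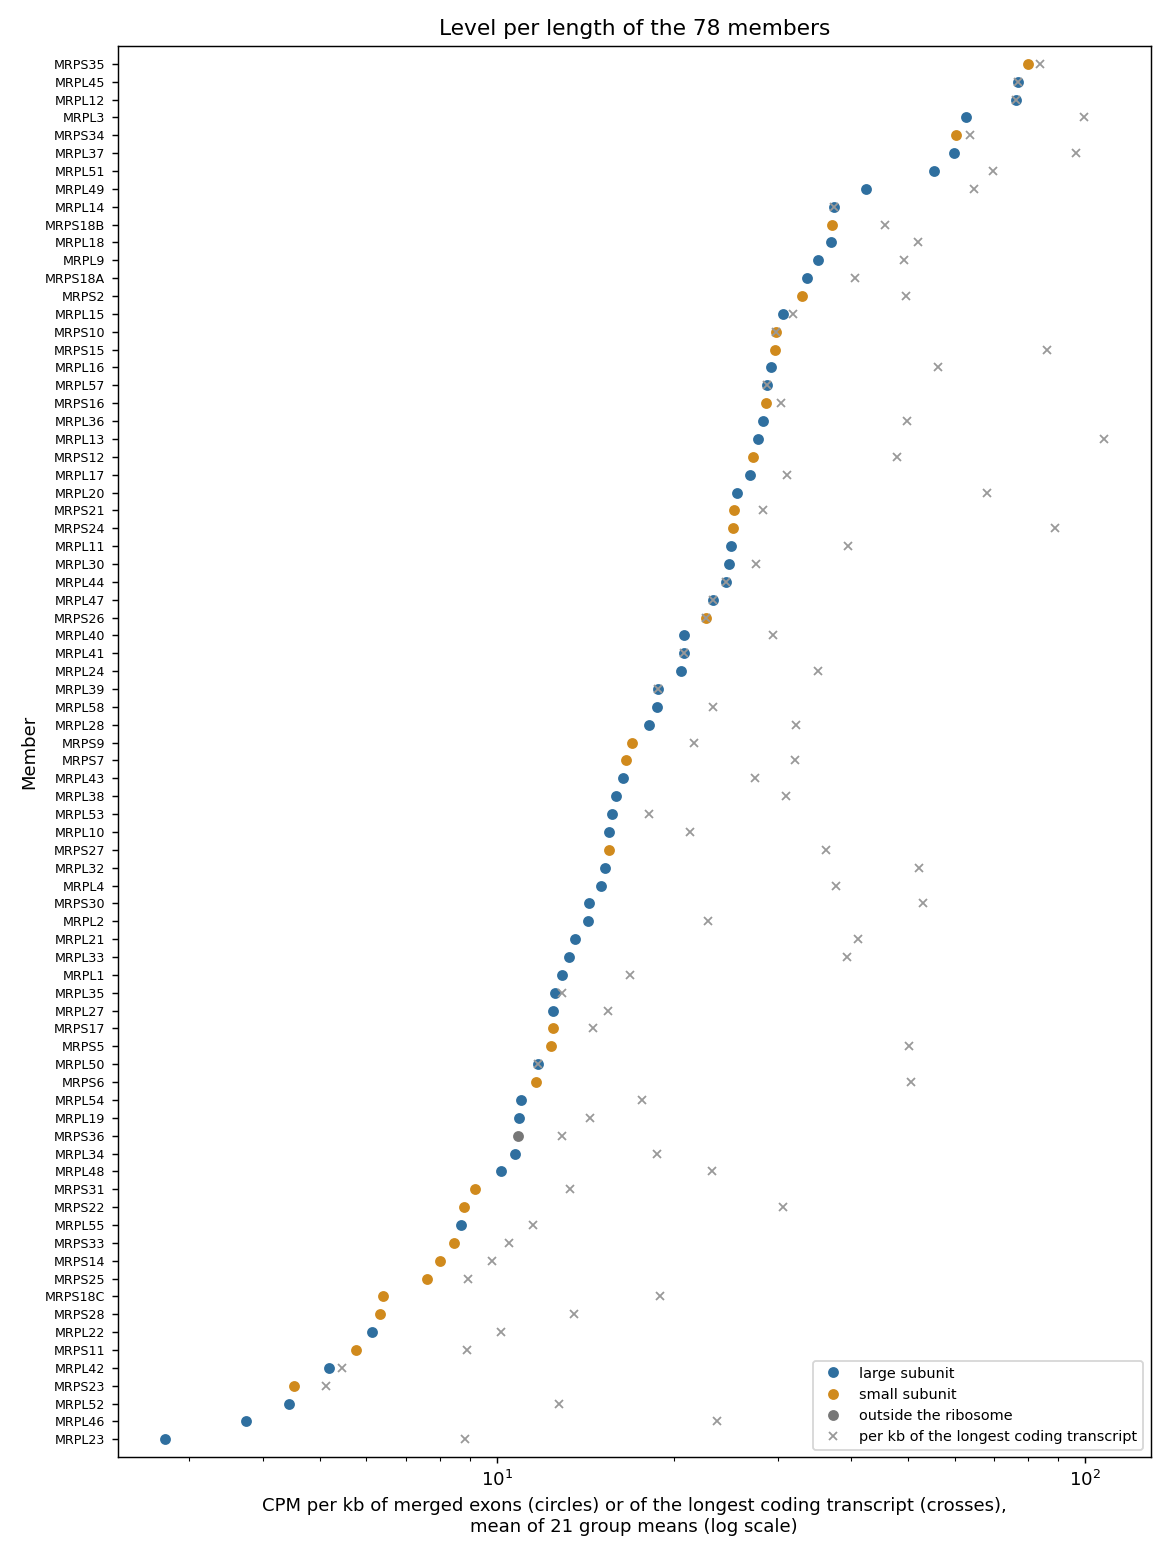
Level of each of the 78 members in CPM per kb of merged exons (circles, coloured by subunit) or of the longest coding transcript (crosses), as the mean of 21 group means on a log axis. MRPS35, MRPL45 and MRPL12 lie at 76.2 to 79.8 CPM per kb of merged exons and MRPL23 at 2.73.

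Across treatments the members varied far less than they did among themselves. The highest group mean of a member was between 1.08 (MRPS27) and 1.89 (MRPL39) times its lowest, with a median of 1.27. For 44 of the 78 members the lowest of the 21 group means was that with LY294002, and for 15 that with wortmannin. The highest group mean was that of Poria 500 for 27 members and of Glycyrrhizae 500 for 10.

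Summed over all members, the level was 4178, 4109 and 4063 CPM in vehicle replicates 1 to 3. With wortmannin it was 3808, 3760 and 3951 CPM, and with LY294002 3507, 3624 and 3889 CPM. All 6 inhibitor libraries were below all vehicle libraries, and the inhibitor groups overlapped each other. Their means differed from vehicle by -6.72% (wortmannin) and -10.8% (LY294002), the 2 lowest of the 21 groups. Poria 500 had the highest mean, with 4539, 4447 and 4274 CPM, followed by Glycyrrhizae 500 with 4400, 4339 and 4420 CPM. Both lay above all vehicle libraries, by 7.36% and 6.56% on the mean. Of the 18 extract groups, 16 had a mean above that of vehicle, and in 9 every library was above every vehicle library. In bulk RNA, a lower sum can come from fewer transcripts per cell or from a change in the rest of the RNA, and these cannot be told apart here.

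**Figure D2:**
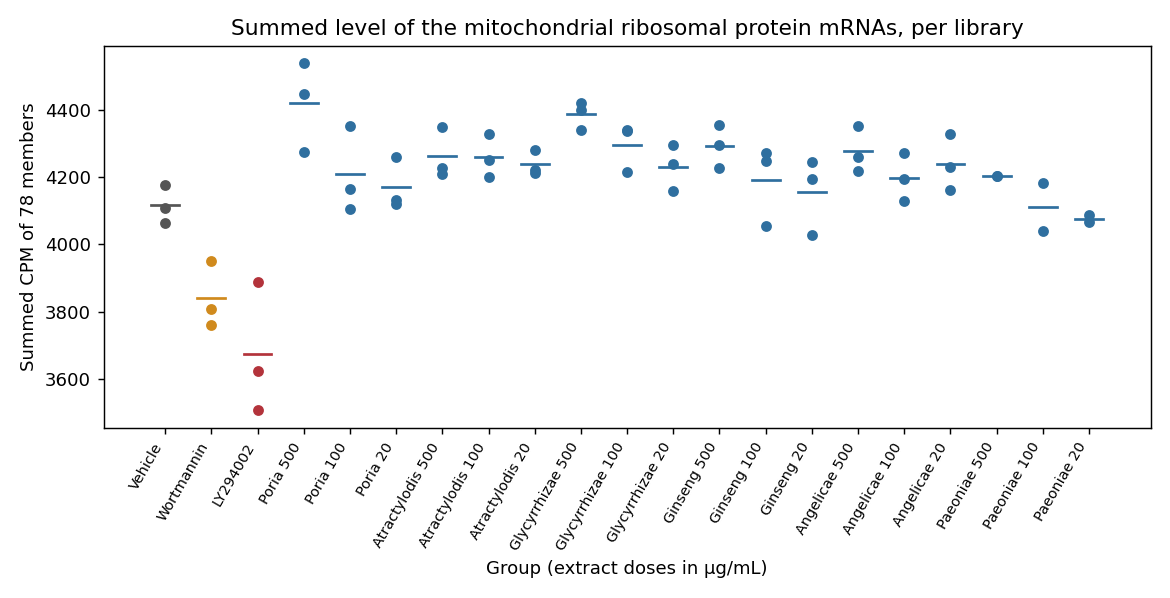
Summed CPM of the 78 members (vertical axis, which does not start at 0) in each of 60 libraries, by group, with points for libraries and lines for group means. Wortmannin and LY294002 libraries, at 3507 to 3951 CPM, lie below the vehicle libraries, at 4063 to 4178 CPM.

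LY294002 lowered more members than any other treatment. Of the 78 members, 36 fell and 5 rose (adjusted p under 0.05, edgeR quasi-likelihood test with Benjamini-Hochberg adjustment over all genes tested). That is 46.2% falling against 20.5% of all tested genes, and 6.41% rising against 18.7%. The median log2 fold change was -0.11 over the members and 0.01 over all tested genes. In 34 of the 36 that fell, every LY294002 library was below every vehicle library, the exceptions being MRPL44 and MRPL47. The calls came from these same libraries, and the share without overlap among all called genes is not given, so this adds no support. Falls were seen in 22 of 51 large and 14 of 26 small subunit members, and in 23 of 46 members kept from bacteria and 13 of 31 particular to mitochondria.

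MRPL39, a large subunit protein particular to mitochondria that is related to threonyl-tRNA synthetase, had the largest fall. Its level was 22.2, 21.3 and 23.3 CPM with vehicle, 18.3, 17.1 and 19.7 CPM with wortmannin and 13.3, 13.2 and 15.4 CPM with LY294002. The 3 groups did not overlap. Its log2 fold change was -0.67 ± 0.07 (SE) with LY294002 (adjusted p = 5.86e-11, edgeR) and -0.28 ± 0.07 with wortmannin (adjusted p = 0.0031, edgeR), that is, 1.60 and 1.21 times lower.

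MRPS15, the counterpart of a bacterial protein that binds the small subunit RNA early in assembly, came next. It stood at 88.8, 97.1 and 92.4 CPM with vehicle and at 67.3, 66.3 and 65.1 CPM with LY294002, which is -0.49 ± 0.05 on the log2 scale (edgeR, adjusted p = 1.15e-11). With wortmannin its 77.4, 79.0 and 86.8 CPM lay between the other groups. MRPL19, which sits at the interface of the subunits, went from 52.6, 51.5 and 49.5 CPM to 36.4, 37.8 and 37.8 CPM with LY294002, which is -0.46 ± 0.04 on the log2 scale (edgeR, adjusted p = 1.21e-11). MRPL4, which reaches into the exit tunnel, went from 62.4, 62.1 and 66.0 CPM to 47.2, 47.5 and 45.3 CPM, which is -0.44 ± 0.05 on the log2 scale (edgeR, adjusted p = 1.5e-09). In all 3 genes the LY294002 libraries were tightly grouped and well below vehicle.

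MRPL3, whose bacterial counterpart reaches towards the peptidyl transferase centre, was the member with the highest CPM. It stood at 174, 173 and 182 CPM with vehicle, 156, 158 and 153 CPM with wortmannin and 135, 137 and 124 CPM with LY294002. The 3 groups were again separate, with log2 fold changes of -0.18 ± 0.05 and -0.42 ± 0.05 (adjusted p = 0.00788 and 1.41e-09, edgeR).

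The 5 members that rose with LY294002 were MRPL54, MRPS14, MRPS21, MRPL53 and MRPS33. MRPS14, a protein of the small subunit head, stood at 20.4, 20.9 and 17.6 CPM with vehicle and 23.7, 23.9 and 27.0 CPM with LY294002, which is 0.34 ± 0.07 on the log2 scale (edgeR, adjusted p = 0.000124). MRPL53, a large subunit protein particular to mitochondria, went from 21, 22.0 and 20.8 CPM to 25.8, 24.6 and 25.7 CPM, which is 0.25 ± 0.07 on the log2 scale (edgeR, adjusted p = 0.0045). These 2 kept their call without any 1 library. CCDC142, which overlaps MRPL53 on the same strand, also rose, by 0.34 ± 0.09 in log2 units (edgeR, adjusted p = 0.0017), and reads shared between them may have been split by the counting.

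MRPL54 stood at 12, 9.99 and 7.60 CPM with vehicle and 9.99, 11.2 and 17.9 CPM with LY294002, and MRPS21 at 42.9, 36.8 and 34.0 CPM and 40.1, 39.3 and 59.97 CPM. In both the groups overlapped and LY294002 replicate 3 stood apart. MRPS33 went from 40.4, 42.6 and 40.7 CPM to 45.0, 42.8 and 55.4 CPM, again highest in that library. Without LY294002 replicate 3 the log2 fold changes of MRPL54, MRPS21 and MRPS33 were 0.10, 0.07 and 0.09 and none passed (adjusted p = 0.684, 0.672 and 0.368, edgeR). That library had the highest LY294002 level for 54 of the 78 members. These were 17 of the 36 that fell, 4 of the 5 that rose and 33 of the 37 not called. The calls came from these same libraries, and a high replicate 3 works against calling a fall. The counts are therefore not read as a difference between these sets.

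**Figure D3:**
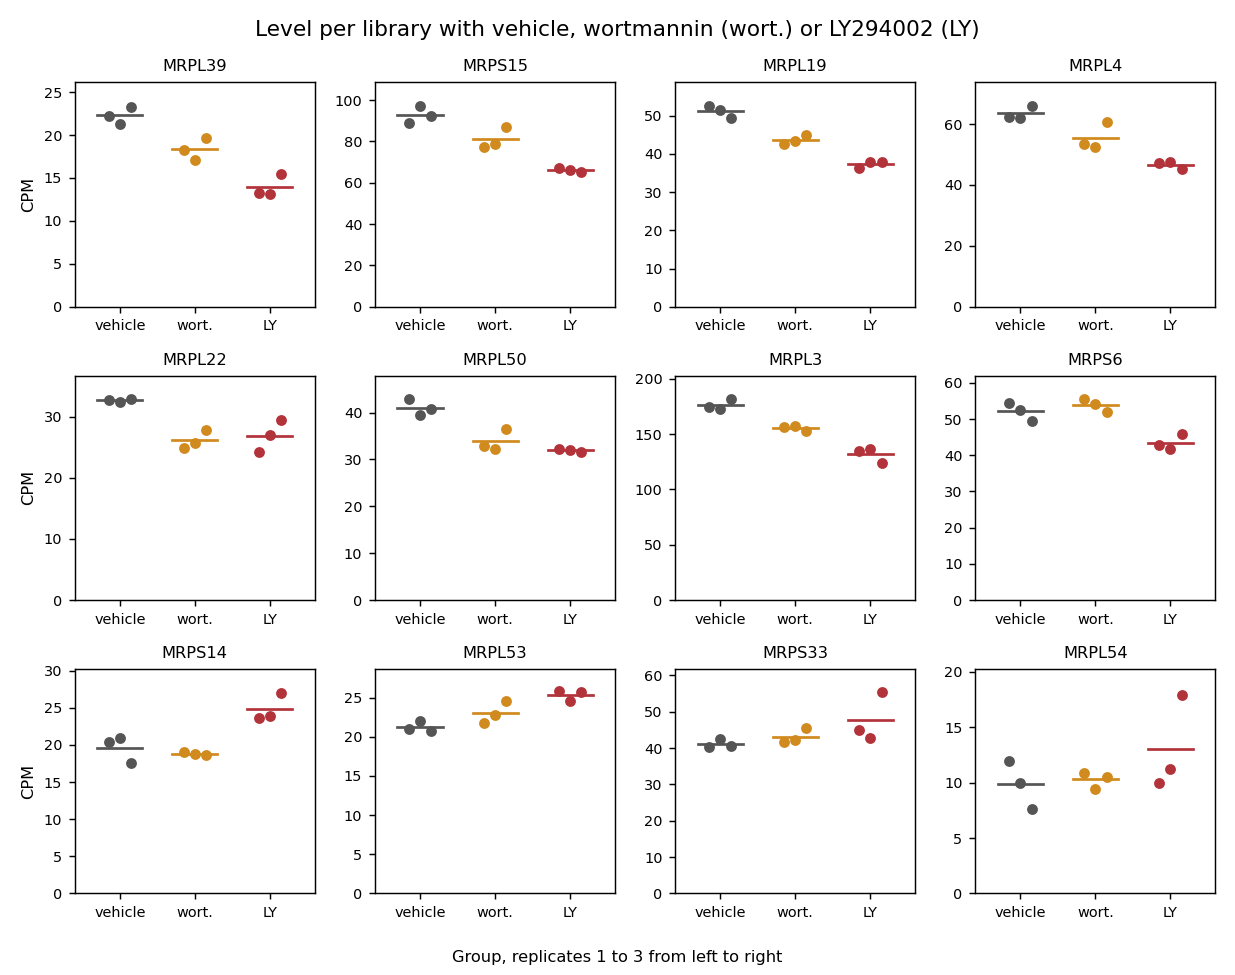
Level in CPM (vertical axes from 0) of 12 members in the 3 libraries each of vehicle, wortmannin and LY294002, with points for replicates 1 to 3 and lines for means. MRPL39, MRPS15, MRPL19, MRPL4 and MRPL3 step down from vehicle to wortmannin to LY294002, MRPS6 is low with LY294002 alone, and the high MRPL54 value with LY294002 is replicate 3.

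Wortmannin lowered 19 members and raised none. This was 24.4% of the members against 7.46% of all tested genes falling, and 6.26% of all tested genes rose. No member rose at an unadjusted p under 0.05 (edgeR) either, and DESeq2 called none upward. The shares of all tested genes that rose by these measures are not given. Both measures come from the same libraries, so they add no support. The median log2 fold change was -0.09 over the members and 0.00 over all tested genes. The calls lay in 14 of 51 large and 5 of 26 small subunit members. In 17 of the 19 the groups did not overlap, the exceptions being MRPL49 and MRPS18A. As with LY294002, the calls came from these same libraries, so this adds no support.

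MRPL22 led, with 32.8, 32.4 and 32.9 CPM with vehicle and 25.0, 25.7 and 27.9 CPM with wortmannin, which is -0.32 ± 0.07 on the log2 scale (edgeR, adjusted p = 0.000356). With LY294002 it stood at 24.3, 27.1 and 29.4 CPM, and the 2 inhibitors differed by -0.04 ± 0.07 (adjusted p = 0.701, edgeR). MRPL50, particular to mitochondria, went from 42.9, 39.4 and 40.8 CPM to 33.0, 32.2 and 36.5 CPM with wortmannin, which is -0.28 ± 0.06 on the log2 scale (edgeR, adjusted p = 0.000833). MRPL47 went from 34.5, 30.9 and 27.4 CPM to 26.4, 26.2 and 25.6 CPM, which is -0.25 ± 0.08 on the log2 scale (edgeR, adjusted p = 0.0356). Its vehicle libraries were spread out, and without vehicle replicate 1 the change was -0.16 (adjusted p = 0.269, edgeR).

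The wortmannin calls rested more on single libraries. Leaving out 1 library at a time, 9 of the 19 kept their call in every case: MRPL3, MRPL9, MRPL19, MRPL22, MRPL39, MRPL50, MRPS10, MRPS15 and MRPS18B. For LY294002, 33 of the 36 falls and 2 of the 5 rises did so. A fit of vehicle and wortmannin alone called 6, and the counts were 10 and 12 without wortmannin replicates 1 and 2. Both lists rest on the same vehicle libraries, so values are given side by side and the lists are not used to support each other.

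**Figure D4:**
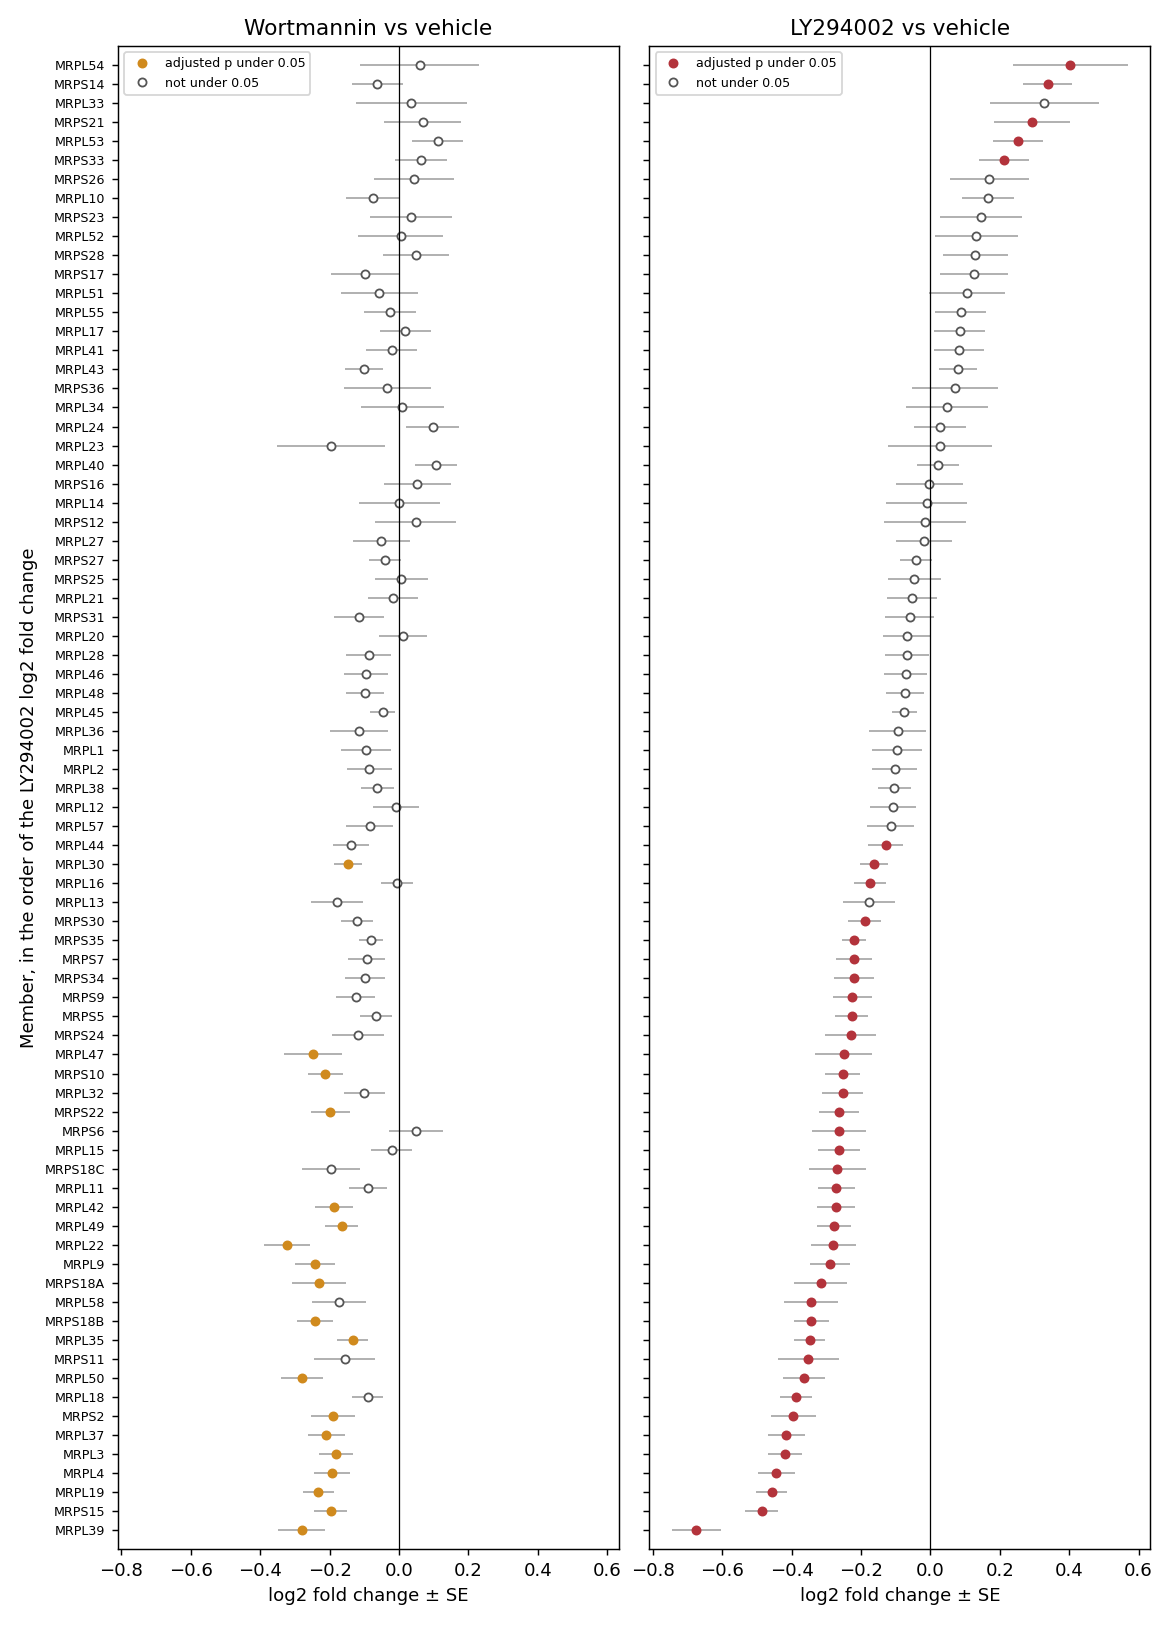
Log2 fold change ± SE of each member with wortmannin (left) and LY294002 (right) against the shared vehicle libraries, in the order of the LY294002 value, with filled points where the adjusted p was under 0.05. The filled points number 19 on the left, all below 0, and 41 on the right, 36 of them below 0.

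Set directly against each other, 15 members were higher and 3 lower with wortmannin than with LY294002. These were 19.2% of members against 12.7% of all tested genes, and 3.85% against 9.49%. The median log2 difference was 0.04 over the members. MRPL39 was the furthest, at 0.39 ± 0.07 (adjusted p = 3.17e-05, edgeR). MRPS6 had 55.6, 54.2 and 51.8 CPM with wortmannin and 42.8, 41.6 and 45.9 CPM with LY294002, a difference of 0.31 ± 0.08 (adjusted p = 0.00246, edgeR). Its wortmannin libraries overlapped vehicle, at 54.5, 52.4 and 49.5 CPM. SLC5A3 overlaps MRPS6 on the same strand, and reads may be shared between them. Against vehicle both fell with LY294002, MRPS6 at -0.26 ± 0.08 and SLC5A3 at -0.28 ± 0.11 in log2 units (edgeR, adjusted p = 0.00626 and 0.0385). Between the inhibitors SLC5A3 differed by 0.20 ± 0.11 (adjusted p = 0.198, edgeR).

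MRPL18, which sits in the central protuberance of the large subunit, had 43.2, 44.5 and 49.7 CPM with wortmannin and 35.3, 37.8 and 38.6 CPM with LY294002. The difference was 0.30 ± 0.05 (adjusted p = 2.4e-06, edgeR), and MRPS15 differed by 0.29 ± 0.05 (adjusted p = 7.03e-06, edgeR). On the other side were MRPS14, at -0.40 ± 0.07 (adjusted p = 2.18e-05, edgeR), and MRPL10, at -0.24 ± 0.08 (adjusted p = 0.0144, edgeR). MRPL10 had 41.2, 37.7 and 36.8 CPM against 41.5, 45.0 and 50.5 CPM, and without LY294002 replicate 3 its difference was -0.17 (adjusted p = 0.168, edgeR). The third lower member was MRPL43, whose groups overlapped. A fit of these 2 groups alone called 7 higher and 1 lower.

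The MRPS18 paralogs, of which MRPS18C is the 1 classed as kept from bacteria, all fell with LY294002. MRPS18A, placed in the large subunit, changed by -0.32 ± 0.08, MRPS18B by -0.34 ± 0.05 and MRPS18C by -0.27 ± 0.08 in log2 units (edgeR, adjusted p = 0.000848, 3.28e-07 and 0.0085). With wortmannin the values were -0.23 ± 0.08, -0.24 ± 0.05 and -0.20 ± 0.08, of which the first 2 passed (adjusted p = 0.0365, 0.000578 and 0.113, edgeR). Of the stalk proteins, which bind translation factors, MRPL11 fell with LY294002, at -0.27 ± 0.05 in log2 units (edgeR, adjusted p = 7.78e-05). MRPL10 and MRPL12 stood at 0.17 ± 0.08 and -0.11 ± 0.07 there and passed in neither direction (adjusted p = 0.0726 and 0.208, edgeR).

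With the extracts few members changed. Poria 500 raised 4 members and lowered none, which at 5.13% is close to the 4.6% of all tested genes that rose. The 4 are named here after their values were seen. MRPL1, of the mobile stalk through which spent tRNA leaves, went from 24.3, 24.4 and 19.2 CPM with vehicle to 28.7, 30.1 and 27.5 CPM, which is 0.34 ± 0.07 on the log2 scale (edgeR, adjusted p = 0.00103). MRPL18, MRPL3 and MRPS35 rose by 0.17 ± 0.05, 0.15 ± 0.05 and 0.11 ± 0.03 (adjusted p = 0.0142, 0.0458 and 0.0325, edgeR). The groups did not overlap in any of the 4, which were called from these same libraries. Without vehicle replicate 2 the count was 1, and MRPL1 alone passed in each case with 1 library left out. A fit of Poria 500 and vehicle alone called 0, DESeq2 called 8, and edgeR without the filter on low counts called 10. The shares of all genes called by these fits are not given, so the counts are not read as a result about the members.

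Small shifts upward were wider than the calls. With Poria 500, 74 of the 78 members had a log2 fold change above 0, against 47.5% of all tested genes. The median was 0.10 over the members and -0.01 over all tested genes. An unadjusted p under 0.05 (edgeR) was found for 30 members, all of them upward. The share of all tested genes under that unadjusted p is not given, here or below. In the same libraries 9 of the 13 mitochondrially encoded proteins fell, against 2.89% of all tested genes, with a median of -0.45, so the medians of the nuclear and the mitochondrial genes had opposite signs. The mitochondrial chromosome took 7.77% ± 0.45 of counts (SD, n = 3) with Poria 500 and 9.96% ± 1.38 (SD, n = 3) with vehicle. A lower share was not particular to Poria 500. All 20 treated groups had a mean share below that of vehicle, and it was lower than with Poria 500 in 2 of them, Glycyrrhizae 20 (7.56%) and Paeoniae 100 (7.59%), whose summed member levels differed from vehicle by 2.77% and -0.10%.

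Glycyrrhizae 500 likewise raised 4 members and lowered none, 5.13% against 3.65% of all tested genes, and these too are named after their values were seen. MRPL18 had 60.8, 58.2 and 60.1 CPM against 50.4, 46.8 and 48.9 CPM with vehicle, which is 0.29 ± 0.05 on the log2 scale (edgeR, adjusted p = 2.05e-05). MRPL13 rose by 0.27 ± 0.07, MRPL39 by 0.25 ± 0.07 and MRPL11 by 0.20 ± 0.05 (adjusted p = 0.02, 0.0157 and 0.0159, edgeR). MRPL18 was the member that kept its call without any 1 library, and the count was 2 without vehicle replicate 3 or without Glycyrrhizae 500 replicate 1 or 3. Without the filter on low counts it was 12, and the share of all genes called that way is not given. The median over the members was 0.10, against -0.0045 over all tested genes. Of the 78 members 69 were above 0, against 48.7% of all tested genes.

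Within extracts, 500 was set against 20 µg/mL, which leaves out the vehicle and the code numbers. Of the 78 members 71 were above 0 with Poria, against 49.3% of all tested genes, with medians of 0.09 and -0.002. Poria raised 4 members and lowered none, 5.13% against 3.21% of all tested genes. They were MRPL1 at 0.25 ± 0.07, MRPS31 at 0.23 ± 0.07, MRPS2 at 0.20 ± 0.06 and MRPS35 at 0.13 ± 0.03 in log2 units (edgeR, adjusted p = 0.021, 0.0447, 0.0466 and 0.0205). MRPL1 had 24.1, 24.6 and 23.8 CPM at 20 µg/mL and 25.7, 25.3 and 24.3 CPM at 100 µg/mL, and both of these doses overlapped vehicle. None of the 4 kept its call without each library in turn. The count of all members called was 1 without replicate 2 of either dose and 2 without replicate 1 or 3 of the 20 µg/mL libraries. Those counts include members outside the 4. Of the 4, 0 kept the call without replicate 2 at 20 µg/mL, and MRPS35 alone kept it without replicate 1 at 20 µg/mL.

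Glycyrrhizae raised 3 members and lowered none, 3.85% against 1.83% of all tested genes. MRPL18 stood at 51.0, 49.98 and 50.2 CPM at 20 µg/mL, 55.4, 52.9 and 56.6 CPM at 100 µg/mL and 60.8, 58.2 and 60.1 CPM at 500 µg/mL. The doses did not overlap, and 500 against 20 µg/mL gave 0.24 ± 0.04 (adjusted p = 0.000523, edgeR). MRPL4 went from 59.9, 57.1 and 57.8 CPM at 20 to 68.5, 66.0 and 70.7 CPM at 500 µg/mL, a difference of 0.23 ± 0.05 (adjusted p = 0.00477, edgeR). MRPL3 differed by 0.16 ± 0.05 (adjusted p = 0.0431, edgeR). MRPL18 and MRPL4 kept their calls without any 1 library. Above 0 were 52 of the 78 members, against 48.0% of all tested genes, with medians of 0.04 and -0.006.

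**Figure D5:**
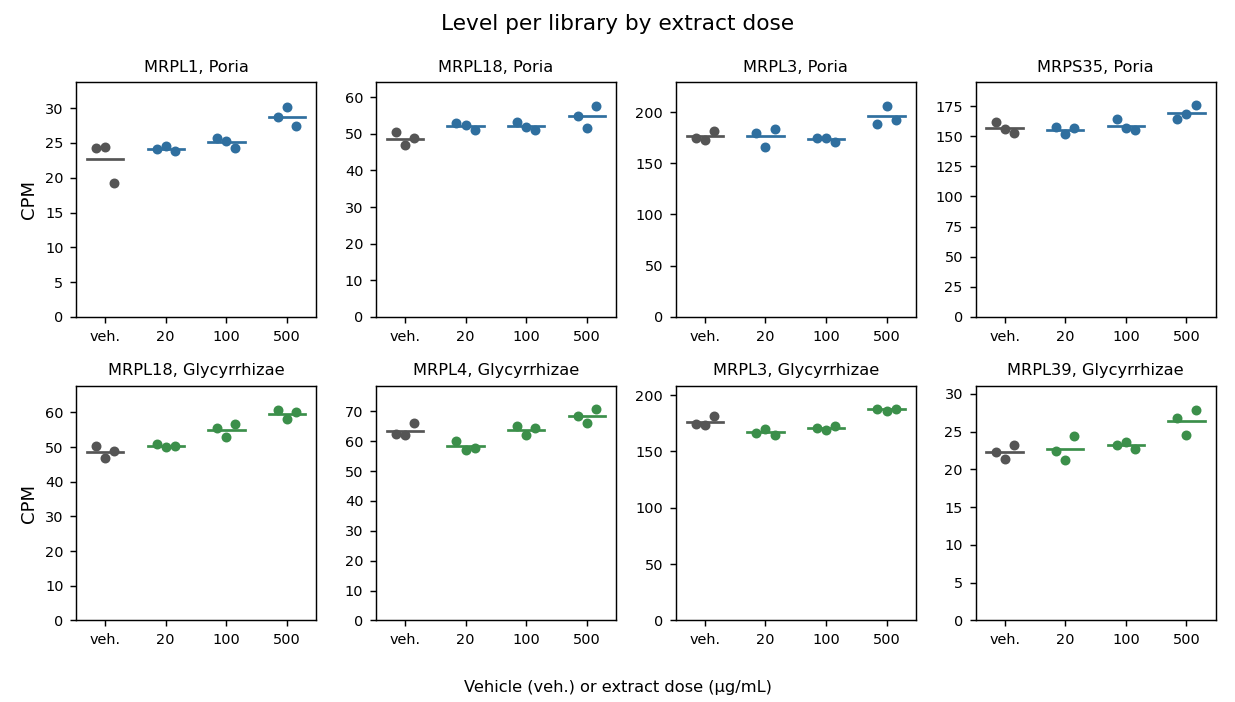
Level in CPM (vertical axes from 0) of 4 members each in the Poria (top) and Glycyrrhizae (bottom) libraries at 20, 100 and 500 µg/mL, beside the shared vehicle libraries, with points for libraries and lines for means. MRPL18 with Glycyrrhizae steps up from 49.98 to 51.0 CPM at 20 µg/mL to 58.2 to 60.8 CPM at 500 µg/mL.

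No member was called in the other 16 comparisons of an extract dose with vehicle, in which 2 to 25 members had an unadjusted p under 0.05 and DESeq2 called 0 to 4. Among all tested genes, edgeR called, in either direction, 0.25% with Atractylodis 500, 0.352% with Ginseng 500, 0.161% with Angelicae 500 and 0.161% with Paeoniae 500. At 100 µg/mL the shares were 0.0417% with Poria, 0.364% with Atractylodis, 0.34% with Glycyrrhizae, 0.0% with Ginseng, 0.00596% with Angelicae and 0.0477% with Paeoniae. At 20 µg/mL they were 0.0% with Poria, 0.137% with Atractylodis, 0.37% with Glycyrrhizae, 0.0% with Ginseng, 0.173% with Angelicae and 0.0% with Paeoniae. A list of 78 genes at these shares would hold few calls or none, so the counts of 0 are near the background. The zeros depended on the filter on low counts. Without it 14 of the 16 comparisons called members, up to 12 of the 78 (15.4%) with Glycyrrhizae 20 and Angelicae 20. The share of all genes called was 0.286% to 3.33% over the 16 comparisons. That share is out of 34237 genes, which include those with low counts, so it is not a like measure for the members. Over the 16 comparisons those calls were 97 upward and 2 downward. They count the same members repeatedly against the same vehicle libraries, and the directions over all genes are not given. They are therefore not read as a result about the members. The median over the members was above 0 in 17 of the 18 extract comparisons, which all share the vehicle libraries. Among these, replicate 3 had the lowest vehicle level for 42 of the 78 members and replicate 1 the highest for 39.

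In 500 against 20 µg/mL, no member was called with Atractylodis (0.0% of all tested genes called), Ginseng (0.0%), Angelicae (0.0179%) or Paeoniae (0.0358%). In these 4 comparisons 2 to 9 members had an unadjusted p under 0.05, and DESeq2 called 0. In the same order, 41, 67, 43 and 61 of the 78 members were above 0, against 49.4%, 51.6%, 49.3% and 50.6% of all tested genes. The difference of this dose effect between the 2 extracts of a code set was tested as an interaction. It was called in no member for Atractylodis less Poria (0.394% of all tested genes), Ginseng less Glycyrrhizae (0.0477%) or Paeoniae less Angelicae (0.0%). Unadjusted p-values under 0.05 were found for 2 to 7 members, and DESeq2 called 0. No single member's response to Poria or Glycyrrhizae was thus shown to differ from that to the partner extract. For Atractylodis less Poria, 66 of the 78 members were below 0, with a median of -0.08 against -0.002 over all tested genes. For Ginseng less Glycyrrhizae 42 were below 0 (median -0.004), and for Paeoniae less Angelicae 20 (median 0.04). Shifts of the members as a set were not tested.

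Among themselves, the members tended to move together. Each member's log2 CPM over the 21 group means was correlated with the mean of the other members, as a description in which all members share the same libraries. Values for other sets of genes are not given, so this is not read as particular to the members. The median r was 0.78 with all groups and 0.56 without the inhibitors, and r was over 0.8 for 35 members. MRPL13 (0.95), MRPS7 (0.93) and MRPL47 (0.93) were the most like the rest. MRPL53 (-0.46), MRPS14 (-0.12), MRPL54 (-0.10) and MRPS6 (-0.01) were the 4 with r below 0. Without the inhibitor groups MRPS14 stood at 0.53, MRPL54 at 0.25 and MRPL53 at 0.21, whereas MRPS6 stood at -0.37. MRPL3 and MRPL18 were each called in 4 comparisons against vehicle or within extracts, the highest number, followed by MRPL4, MRPL39, MRPS2 and MRPS35 with 3 each.

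The other genes of mitochondrial translation were read from fixed lists. As above, 20.5% of all tested genes fell and 18.7% rose with LY294002, and 7.46% fell with wortmannin. DAP3, CHCHD1, AURKAIP1, PTCD3 and GADD45GIP1 are ribosomal proteins under other symbols. DAP3, PTCD3 and GADD45GIP1 fell with LY294002, at -0.14 ± 0.03, -0.15 ± 0.04 and -0.25 ± 0.08 in log2 units (edgeR, adjusted p = 0.000764, 0.00402 and 0.00864). With wortmannin the median of the 5 was -0.06. DAP3 rose with Poria 500, by 0.12 ± 0.03 (adjusted p = 0.0187, edgeR).

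Of 15 translation factors, 6 fell (40%, against 20.5% of all tested genes) and 1 rose with LY294002 (6.67% against 18.7%), and 3 fell with wortmannin (20% against 7.46%). MTRF1L, a release factor, fell with wortmannin, at -0.28 ± 0.06 in log2 units (edgeR, adjusted p = 0.000376), and TACO1, an activator of COX1 translation, fell likewise, at -0.21 ± 0.07 (adjusted p = 0.0256, edgeR). MTFMT, which formylates the initiator tRNA, was lower with wortmannin than with LY294002, at -0.22 ± 0.08 (adjusted p = 0.0312, edgeR). Of 27 genes for ribosome assembly and rRNA modification, 6 fell (22.2%) and 3 rose (11.1%) with LY294002, and 4 fell with wortmannin (14.8%). The LY294002 falls were thus near the share over all tested genes. C1QBP, a matrix protein needed for mitochondrial translation, went from 148.6 ± 4.56 CPM (SD, n = 3) to 110.5 ± 5.09 CPM (SD, n = 3) with LY294002, which is -0.43 ± 0.05 on the log2 scale (edgeR, adjusted p = 9.09e-11). It was higher with wortmannin than with LY294002 by 0.26 ± 0.05 (adjusted p = 1.68e-05, edgeR).

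Of 11 genes for mitochondrial transcription and RNA stability, 4 fell with LY294002 (36.4%, against 20.5% of all tested genes) and 1 with wortmannin (9.09%, near the 7.46% of all). PNPT1, a mitochondrial exoribonuclease, was higher with wortmannin than with LY294002 by 0.35 ± 0.04 (adjusted p = 2.63e-09, edgeR). Of 9 tested nuclear regulators, 4 fell with LY294002 (44.4%) and 1 with wortmannin (11.1%), the latter again close to the share over all tested genes. GABPB1, a subunit of the ETS site factor GABP, fell with wortmannin, at -0.23 ± 0.04 in log2 units (edgeR, adjusted p = 5e-05). PPRC1, a coactivator of nuclear genes for mitochondrial proteins, fell with LY294002, at -0.43 ± 0.08 (adjusted p = 2.59e-05, edgeR). The 13 mitochondrially encoded proteins had medians of -0.20 with wortmannin and -0.13 with LY294002. MT-ND2, of respiratory complex I, was the 1 of the 13 that passed with LY294002, at -0.45 ± 0.14 (adjusted p = 0.00837, edgeR). That is a smaller share than the 20.5% of all tested genes that fell.

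Near copies limit some of these values. Named pseudogenes, 79 in all, are annotated for 36 members, 8 of them for MRPS21, and 38 members overlap another coding gene, 13 of them on the same strand. The sources used here do not say how the authors' counting used strand, so reads of such members can be shared with the copy or neighbour. MRPL39, MRPL4, MRPL18 and MRPL1 are among the members with neither a named pseudogene nor an overlapping coding gene.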

How the data were processed

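RNA was sequenced in 60 libraries of HT29 cells. Per the labels' protocols, directional mRNA libraries were made from 1 µg of RNA (RIN over 7) and read in pairs of 100 bp. Per the submitters' processing notes, the tools were FastQC 0.11.9, Trim Galore 0.6.5, STAR 2.7.3a and RSEM 1.3.3 with GRCh38 (hg38). Neither the authors' gene models nor their handling of strand is named in the labels. The authors deposited expected counts from RSEM without normalisation, with Ensembl identifiers, and 24.2% of nonzero values had decimals. The table has 273 columns, and 213 were not used here. Symbols were matched by Ensembl identifier for 56558 of 60675 genes, and coordinates and exon lengths came from GENCODE 29.

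Expected counts were rounded and filtered in edgeR 4.0.16 under R 4.3.3 (filterByExpr, a count of at least 10 and a total of at least 15), scaled by TMM (factors 0.969 to 1.03) and fitted by quasi-likelihood (glmQLFit, glmQLFTest) over all 60 libraries, with 1 coefficient per group and 21 groups (39 residual degrees of freedom, common biological coefficient of variation 0.057). Genes were called at an adjusted p under 0.05 (Benjamini-Hochberg, over all 16767 genes of each of 30 comparisons). The SE is the one implied by the F statistic. Levels are CPM with the TMM factors. The fit was checked on simulated counts. The members and lists were chosen with earlier results of these data known. Members were named by rule: per comparison with at least 5 calls, the 4 largest changes in each direction with a mean of at least 5 CPM and no overlap of groups, the 5 members called most often, the 3 highest and lowest per kb, the MRPS18 paralogs and stalk proteins, the 3 most and least like the rest, and up to 3 pathway genes by the same conditions. The alternatives were DESeq2 size factors, DESeq2 1.42.0, no filter, a replicate block, a fit of the groups compared alone, and leaving out each library. Libraries held at least 20431980 expected counts.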

Additional observations from a re-analysis of the deposited data

How the results depend on the processing

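Each count of called members was recomputed under the alternatives. So were 34 log2 fold changes, of members picked for a call or for a large change without overlap of groups. None changed sign in 374 such values, and 78 of these lost the call. Members picked for a change in these libraries could hardly change sign in a refit of them, so the signs add no support. A fit of the groups compared alone called 6 members with wortmannin, 8 in wortmannin against LY294002, and 0 with Poria 500 against vehicle and against Poria 20. The same fit called 2 with Glycyrrhizae 100 and 1 with Angelicae 20. Without the filter on low counts, more members were called against vehicle: 10, 2 and 0 with Poria 500, 100 and 20, 9, 4 and 11 with Atractylodis, 12, 10 and 12 with Glycyrrhizae, 8, 4 and 4 with Ginseng, 8, 5 and 12 with Angelicae, and 4 and 6 with Paeoniae 500 and 100. It also called 1 member in Atractylodis 500 against 20 and 1 in the difference of that effect from Poria. The cause was not tested. Shares of all genes called without the filter are given above only for the extract comparisons that called no member with it. DESeq2 called 8 with Poria 500, 1 each with Atractylodis 500, Angelicae 500 and Paeoniae 100, 2 with Glycyrrhizae 100, 4 with Glycyrrhizae 20 and 3 with Angelicae 20. Its shares of all genes called are not given, so these counts are not read as a result about the members.

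Replicates of the same number did not deviate together beyond a correlation of 0.1 in all pairs of any of 27 comparisons over all tested genes, and did in 2 over genes from 10 CPM, so the numbers were not taken to pair the libraries. A replicate block gave 0 up and 19 down with wortmannin, 6 and 37 with LY294002, and 6 up with Poria 500, and it added 1 call each with Angelicae 500, Glycyrrhizae 100, Glycyrrhizae 20 and Angelicae 20.

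Leaving out each library in turn gave 10 to 22 calls with wortmannin, 38 to 45 with LY294002, 13 to 22 between the inhibitors, 1 to 5 with Poria 500 and 2 to 6 with Glycyrrhizae 500 against vehicle, 1 to 4 and 2 to 4 in their 500 against 20, 0 to 1 with Ginseng 500, Angelicae 500 and Atractylodis 20, 0 to 2 with Glycyrrhizae 100 and 0 to 3 with Glycyrrhizae 20. Without a Paeoniae library that arm has 1 sample, which is assumed to vary like the other groups. The size factors of DESeq2 in edgeR moved no count by over 1.5 times. Over all tested genes, wortmannin gave 1050 calls up and 1250 down, against 704 and 545 in the fit of its groups alone and 1082 and 948 without the filter.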

Other observations

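By group mean, some members stood above vehicle with most extracts without passing the test. For MRPS23 and MRPL33 the vehicle mean was the lowest of the 21 groups. MRPS23, a small subunit protein, had 25.0, 24.5 and 20.3 CPM with vehicle and 33.3, 26.9 and 28.4 CPM with Poria 500, and 28.8, 33.6 and 32.7 CPM with Glycyrrhizae 20. MRPL33 had 19.2, 18.3 and 13 CPM with vehicle and 24.3, 17.3 and 19.7 CPM with Poria 500. MRPS12 had 56.9, 49.0 and 42.3 CPM with vehicle and 70.7, 50.2 and 57.8 CPM with Poria 500. With Poria 500 the groups overlapped in MRPL33 and MRPS12. In all 3 vehicle replicate 3 was the lowest, and the 3 were picked after their values were seen. The same library was low for MRPL54 and MRPS21, which were highest in LY294002 replicate 3, as MRPS23, MRPL33 and MRPS12 were, at 31.1, 27.1 and 57.9 CPM.

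MRPS27 was the steadiest member, with 92.9 to 109 CPM over the 60 libraries, and MRPL39 the most variable by group mean, with 13.2 to 27.9 CPM. The 5 members that rose with LY294002 had longest coding transcripts of 626 to 4241 bp (median 1462), the 36 that fell 743 to 15582 bp (median 1612.5) and the other 37 518 to 5621 bp (median 1387).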
